A study of Homo sapiens with 13 samples.

Results

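CD antigens are cell surface molecules of leukocytes that were numbered as antibodies against them were sorted into clusters of differentiation. They were followed here in myeloma cells, the malignant plasma cells, in which the transcription factor IRF4 was knocked down by a hairpin RNA. The members are all genes whose annotated symbol is CD, a number and at most 1 more letter, without CD27, CD38 and CD74, together with MS4A1 (CD20), CR2 (CD21) and FCER2 (CD23). Of 62 such genes on the array, 52 had at least 1 array feature with a value on 7 or more of the 13 arrays, among 3841 named genes that met the same condition. They were grouped by where textbooks place their expression, as 10 B cell, 11 T cell, 11 myeloid or dendritic cell and 20 broadly expressed antigens. The 10 that were not measured often enough were CD1B, CD2, CD209, CD248, CD274, CD300A, CD4, CD79A, CD8B and CD93. CD5L, which the symbol rule took in, encodes a secreted macrophage protein and not a surface antigen.

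Each of the 13 spotted cDNA arrays held RNA from a pair of infected cultures of 1 cell line, the culture with the IRF4 hairpin in Cy5 and the culture with a control hairpin against luciferase (shluc) in Cy3, so both carried an inducible hairpin and a log2 ratio above 0 means more mRNA in the IRF4 hairpin culture. In the line KMS12, 3 culture series named 1332, 1332b and 2046 each had 1 array before induction, 1 at days 2-3 and 1 at days 4-5 of doxycycline at 20 ng/ml. The labels attach these numbers to the IRF4 hairpin itself (shi_1332, shi_1332b and shi_2046), so each KMS12 window appears to pool 2 hairpins, and what the b in 1332b stands for is not stated. Series 1332 was sampled at days 3 and 5 and had 1 more array at day 7, and the other series at days 2 and 4, so the day within a window and the series cannot be told apart. The line H929 had 2 repeat arrays and the line SKMM1 had 1, all at day 4 with doxycycline at 20 ng/ml and the hairpin numbered 2046. Nothing in the labels tells whether repeats were grown separately, so the p-values cover array-to-array spread alone, which may be technical, and with so few arrays the precision is limited. All values below are log2 ratios relative to the median of the array. A bulk ratio cannot tell fewer cells of a type from less RNA per cell, and it gives no level of an antigen, so the lines could not be checked against the level of plasma cell markers.

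As a check of the labels, IRF4 stood at 125%, 110% and 128% of the control culture before induction in series 1332, 1332b and 2046, at 42.5%, 28.2% and 54.0% at days 2-3, and at 62.2%, 55.5% and 60.3% at days 4-5. It stood at 59.9% at day 7, at 28.0% and 24.5% on the H929 arrays and at 23.5% on the SKMM1 array. All 10 induced arrays thus lay below all 3 uninduced ones.

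The antigens differ in what they do. Some build or tune the antigen receptor (CD79B with the B cell receptor, CD3D, CD3E, CD3G and CD247 with the T cell receptor), some are costimulatory ligands and receptors (CD40, CD70, CD80, CD86, CD28), some are tetraspanins that organise other membrane proteins (CD9, CD37, CD53, CD63, CD81, CD82), and CD55 and CD59 shield cells from complement. Plasma cells lose many B cell antigens as they mature. IRF4 binds DNA beside PU.1 or SPIB at a composite element, GGAANNGAAA, known as the EICE.

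The promoters of 38 of the 52 measured genes were found among the RefSeq promoters of GRCh38.p14 (250 bases before to 50 after the start). The EICE letters, on either strand, occurred in 6 of the 38 (15.8%) and in 776 of all 27305 promoters (2.84%). The interferon-stimulated element GAAANNGAAA, which differs from the EICE at 1 letter, occurred in 0 of the 38 and in 3.65% of all promoters. With the antigens not measured often enough included, 43 promoters were found. The interferon-stimulated element occurred in 3 of these 43 (CD2, CD209 and CD274) and the EICE in 6. The 6 stretches are shown because they hold the EICE matches among these 38 antigens. Each is written on the strand of its gene, 5′ to 3′, upstream of the start, with the letters of the match in capitals. They lie in order at chr1:158289673-158289709, chr1:158179804-158179853, chr2:203706605-203706638, chr11:33736630-33736679, chr17:7579564-7579613 and chr6:14117067-14117116, with CD59 on the minus strand.
CD1C: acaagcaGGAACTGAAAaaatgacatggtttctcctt
CD1D: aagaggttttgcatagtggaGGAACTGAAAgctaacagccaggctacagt
CD28: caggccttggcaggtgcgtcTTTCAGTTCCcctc
CD59: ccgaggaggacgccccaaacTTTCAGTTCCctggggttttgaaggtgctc
CD68: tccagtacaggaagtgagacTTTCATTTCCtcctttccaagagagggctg
CD83: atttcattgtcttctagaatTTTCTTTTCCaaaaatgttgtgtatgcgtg
Counted from the start, the match begins at position -243 in CD1C, -123 in CD1D, -14 in CD28, -180 in CD59, -54 in CD68 and -169 in CD83. CD1C, CD1D, CD28 and CD59 carry the same letters, in the last pair as the reverse complement. The measured genes with no entry in the promoter table are CD24, CD37, CD3E, CD3G, CD40, CD5, CD6, CD69, CD7, CD70, CD79B, CD81, CD84 and MS4A1. These genes took no common direction: at days 2-3 against the uninduced arrays CD1D differed by 0.68, CD83 by 0.43, CD68 by 0.01, CD1C by -0.02 and CD59 by -0.52, and CD28 was not tested there. A match is a description of the letters and shows no binding.

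**Figure D1:**
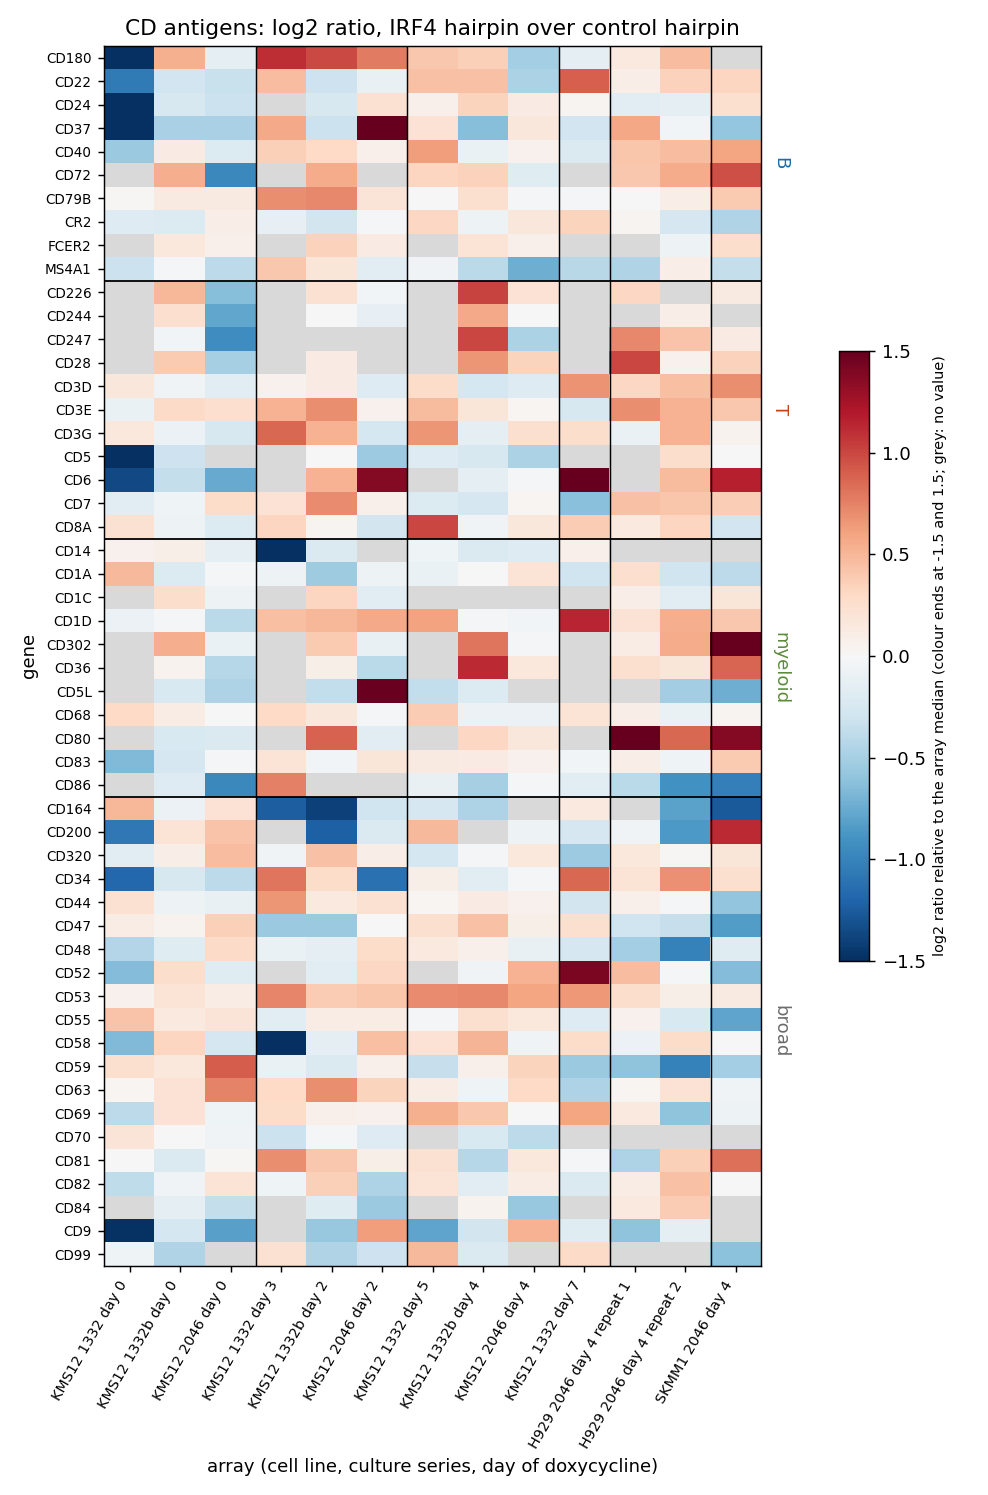
Log2 ratio of the IRF4 hairpin culture over the control culture for the 52 measured CD antigens (rows, in 4 groups) on the 13 arrays (columns); red is above and blue below the array median, with the colour ending at -1.5 and 1.5, and grey marks no value. CD180, CD22, CD24 and CD37 are darkest blue on the uninduced array of series 1332, CD53 is red on every induced array, and CD80 is red on both H929 arrays and on SKMM1.

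To ask which antigens moved first, the days 2-3 arrays were compared with the uninduced arrays in KMS12. B cell and T cell antigens lay mostly above their uninduced ratios and the broadly expressed ones were split, but no antigen passed the test. The 9 tested B cell antigens had a median log2 difference of 0.46 with 8 above 0, and the 9 tested T cell antigens had 0.28 with 9 above 0. The 10 myeloid antigens had a median of 0.02 with 6 above 0, and the 20 broad antigens 0.06 with 12 above 0. Over all 5980 genes and unnamed features tested the median was 0.02 and 51.3% lay above 0. limma called 0 of the 48 antigens tested and 0 of all 5980 (0% at a Benjamini-Hochberg adjusted p under 0.05). At an unadjusted p under 0.05 there were 7 antigens, against 1280 (21.4%) of everything tested.

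The B cell and T cell groups did not stand alone. Markers of other cell types outside the CD antigens were also above 0 at days 2-3, with medians of 0.54 for erythroid or stromal genes (5 of 5 above 0), 0.44 for myeloid genes (2 of 3), 0.40 for T and NK cell genes (3 of 3) and 0.41 for B cell genes such as PAX5 and SPIB (3 of 4), while the 7 plasma cell genes other than IRF4, the target, had a median of -0.37 (2 of 7 above 0). Medians of these lists on single uninduced arrays ran from -0.76 to 0.12 outside the plasma cell genes. Within the culture series, the B cell antigens had a median difference of 0.91 in series 1332 (7 of 7 above 0), 0.17 in 1332b (8 of 10) and 0.22 in 2046 (8 of 9). The T cell antigens had 0.39, 0.24 and -0.03 in the same order, with 3 of 8 above 0 in series 2046. Over all genes and features the medians were 0.00, 0.02 and -0.12. Without series 1332, whose arrays measured the fewest features, the fitted medians were 0.24 for B cell antigens (8 of 9 above 0), 0.19 for T cell antigens (8 of 8), 0.03 for myeloid and -0.01 for broad antigens.

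**Figure D2:**
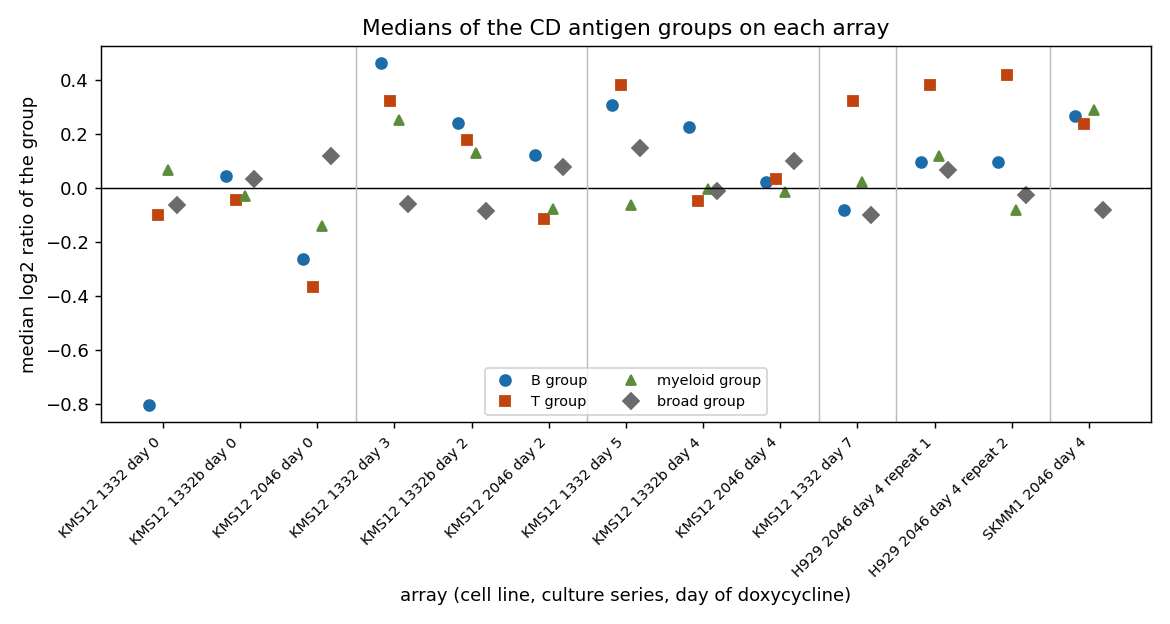
Median log2 ratio of each CD antigen group (points) on each array (horizontal axis, by cell line, culture series and day); vertical lines part the groups of arrays. The B cell group moves from -0.81 on the uninduced array of series 1332 to 0.46 at its day 3, and the T cell group is highest on an H929 array at 0.42.

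Among the B cell antigens, CD37 and CD180 had the smallest p. CD37, a tetraspanin of mature B cells, had ratios of -1.69, -0.49 and -0.49 on the uninduced arrays of series 1332, 1332b and 2046 and of 0.57, -0.33 and 1.60 at days 2-3. The groups did not overlap, but series 1332b moved by only 0.17 within the series. The difference was 1.51 (SE 0.49, 2.84-fold, limma adjusted p = 0.131). All 3 of its features differed upwards, by 0.62 to 3.71. CD180, a receptor related to the Toll-like receptors that B cells use to sense lipopolysaccharide, had -1.49, 0.53 and -0.15 before induction and 1.11, 0.99 and 0.77 at days 2-3. Every induced value was above every uninduced one, and the rise within the series was widest in 1332, at 2.60, against 0.46 and 0.93. The difference was 1.33 (SE 0.44, limma adjusted p = 0.138), and its 3 features lay above 0.

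CD79B, the signalling chain of the B cell receptor, had ratios of 0.01, 0.14 and 0.14 uninduced and 0.70, 0.72 and 0.20 at days 2-3, with no overlap and a difference of 0.44 (SE 0.21, limma adjusted p = 0.255). All 7 of its features were above 0. CD40, the receptor through which T cells help B cells, differed by 0.46 (SE 0.26) with 4 of 4 features above 0 and with overlapping groups. CD22, an inhibitory receptor, differed by 0.57 (SE 0.33), yet its value in series 1332b moved by -0.03. CD24, a lipid-anchored glycoprotein of immature B cells, differed by 1.08 (SE 0.61) on 2 induced arrays, and its uninduced values of -2.69, -0.24 and -0.32 show that series 1332 set most of that size. MS4A1, the CD20 protein lost in plasma cells, differed by 0.38 (SE 0.26). FCER2, the low-affinity IgE receptor, differed by 0.12 (SE 0.28) and CR2, the complement receptor of the B cell co-receptor, by -0.04 (SE 0.21). The 4 features of CR2 ran from -1.47 to 0.75, so they do not measure 1 change. CD72 was not tested in this window.

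Of the T cell antigens, CD6, a scavenger receptor-like protein that binds ALCAM, had the smallest p of all CD antigens in this window. Its ratios were -1.35, -0.35 and -0.76 uninduced, and 0.52 and 1.38 at day 2 in series 1332b and 2046, with no value in series 1332. The difference was 1.77 (SE 0.38, 3.40-fold, limma adjusted p = 0.106) on 2 arrays against 3, and both features were above 0. The chains of the T cell receptor complex differed by less than 2 SE: CD3G differed by 0.43 (SE 0.33), CD3E by 0.28 (SE 0.24) and CD3D by 0.01 (SE 0.22), with limma adjusted p-values of 0.481, 0.527 and 0.983. CD5, an inhibitor of antigen receptor signalling that some B cells also carry, differed by 0.64 (SE 0.42), and CD7, an early T cell antigen, by 0.32 (SE 0.23). CD244, CD226 and CD8A differed by 0.21, 0.16 and 0.05, each with an SE above 0.29.

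Myeloid antigens went both ways. CD1D, which presents lipids to NKT cells and carries the upstream EICE letters shown above, had ratios of -0.09, -0.03 and -0.40 uninduced and 0.46, 0.49 and 0.57 at days 2-3. The groups did not overlap, the rise within a series was 0.55, 0.53 and 0.97, and the difference was 0.68 (SE 0.24, limma adjusted p = 0.145). CD14, the lipopolysaccharide co-receptor of monocytes, was measured by 1 feature at 0.07, 0.08 and -0.14 uninduced and at -1.57 and -0.21 in series 1332 and 1332b, a difference of -0.89 (SE 0.37, limma adjusted p = 0.212). CD83, a maturation antigen of dendritic cells, differed by 0.43 (SE 0.22) and features of both signs. CD80, a ligand of CD28, differed by 0.58 (SE 0.41), CD5L by 0.91 (SE 0.57) and CD1A by -0.32 (SE 0.26), all with overlapping values or values missing in 1 series.

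Of the broad antigens CD164 and CD47 had the smallest p, both below their uninduced ratios, and CD200 differed by -0.57 (SE 0.51). CD164, a sialomucin involved in adhesion, had ratios of 0.50, -0.09 and 0.22 uninduced and -1.24, -1.40 and -0.30 at days 2-3, with no overlap and a difference of -1.19 (SE 0.32, 2.28-fold, limma adjusted p = 0.11). Without the series 2046 array at day 2, limma called 2 antigens, CD164 at -1.53 (adjusted p = 0.0117) and CD34, a sialomucin of haematopoietic progenitors, at 1.15 (adjusted p = 0.0453). The share of all genes and features called without that array is not given here, so these calls are not set against a background. With that array CD34 differed by 0.60 (SE 0.44), since its ratios at days 2-3 were 0.80, 0.28 and -1.12. CD47, the signal by which cells avoid being eaten by macrophages, had 0.11, 0.06 and 0.36 uninduced and -0.56, -0.56 and -0.01 at days 2-3. The difference was -0.55 (SE 0.22, limma adjusted p = 0.195) and all 5 features were below 0. CD59, the inhibitor of the membrane attack complex, had 0.24, 0.16 and 0.91 uninduced and -0.11, -0.21 and 0.07 at days 2-3. All 4 of its features were below 0 and the difference was -0.52 (SE 0.27, limma adjusted p = 0.294). CD9, a tetraspanin, differed by 0.88 (SE 0.50) with overlapping arrays, and CD81, the tetraspanin of the B cell co-receptor, by 0.46 (SE 0.28) without overlap.

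Among the 31 antigens with values on all 6 arrays, the days 2-3 values lay wholly above the uninduced ones in 6 (CD180, CD1D, CD37, CD53, CD79B and CD81) and wholly below in 4 (CD164, CD47, CD55 and CD59). Of all 3791 genes and features with all 6 values, 8.81% lay wholly above and 21.9% wholly below. CD55, the complement regulator that speeds decay of the convertases, differed by -0.23 (SE 0.20), with 3 of 4 features below 0.

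**Figure D3:**
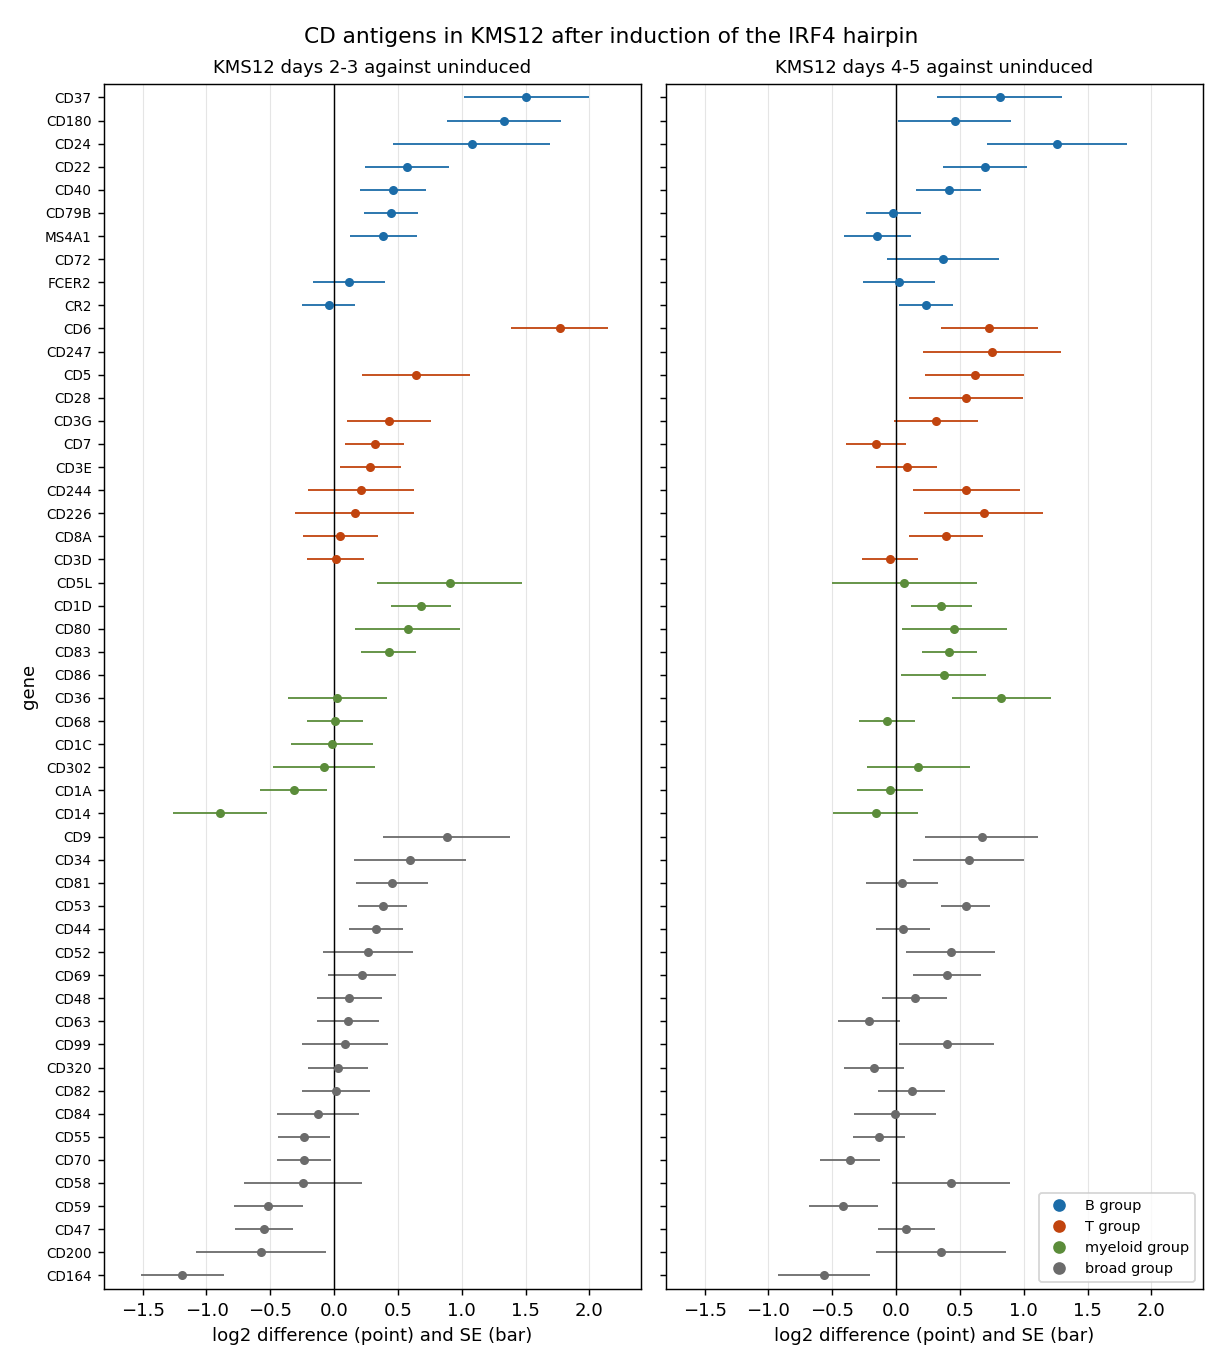
Log2 difference from the uninduced KMS12 arrays (points) with its SE (bars) for each CD antigen at days 2-3 (left) and days 4-5 (right), ordered within each group by the left panel. At days 2-3 CD6 lies furthest to the right at 1.77 and CD164 furthest to the left at -1.19, and at days 4-5 the points lie between -0.57 and 1.26.

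The later window asked whether these differences lasted. At days 4-5 against uninduced, limma called 0 of 51 antigens and 0 of 6521 genes and features (0%), and 2 antigens had an unadjusted p under 0.05, against 5.63% of everything tested. The T cell antigens had the highest median, 0.55 with 9 of 11 above 0. B cell antigens had 0.39 (8 of 10), myeloid antigens 0.26 (7 of 10) and broad antigens 0.10 (13 of 20), beside 0.03 and 52.9% above 0 for all genes and features. Within the series the B cell medians were 1.34, -0.05 and 0.03 for 1332, 1332b and 2046. The T cell medians were 0.54, 0.07 and 0.47 in the same order, beside 0.026, 0.015 and -0.045 over all genes and features. Without series 1332 the fitted B cell median was 0.06 and the T cell median 0.34. How often a gene was measured moved with these values. Over all genes and features the median difference was 0.32 for those with values on 7 to 9 arrays, 0.08 on 10 to 12 and -0.12 on all 13, and the antigens in those classes had 0.40, 0.44 and 0.10. The part of faint spots in the group medians was not tested. Of the marker lists outside the CD antigens, 4 had medians above 0 here too, with 0.55 for erythroid or stromal genes (6 of 6), 0.39 for T and NK cell genes (3 of 3), 0.32 for B cell genes (3 of 4) and 0.21 for myeloid genes (3 of 4). The plasma cell genes other than IRF4 had a median of -0.42 (1 of 7 above 0).

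CD53, a tetraspanin of most leukocytes, had the smallest p at days 4-5. Its ratios were 0.07, 0.20 and 0.12 uninduced, 0.73, 0.38 and 0.42 at days 2-3, 0.70, 0.72 and 0.60 at days 4-5, and 0.65 at day 7. In H929 they were 0.26 and 0.08, and in SKMM1 0.14. The induced KMS12 arrays all lay above the uninduced ones, while the other lines gave smaller ratios, which overlap the uninduced ones. The difference at days 4-5 was 0.54 (SE 0.19, 1.46-fold, limma adjusted p = 0.804), with 6 of 6 features above 0. At days 2-3 it was 0.38 (SE 0.19) with 5 of 6 features above 0, and the 1 feature below 0, measured on all 13 arrays, gave -0.19. CD53 was the only one of the 28 antigens with values on all 10 induced arrays to be above 0 on all of them, which 1.59% of 2774 genes and features did. No antigen of the 28 was below 0 on all 10, which 2.74% of the 2774 were. Against 0, instead of the uninduced arrays, limma called CD53 at 0.51 (adjusted p = 0.0459) and CD164 at -0.98 (adjusted p = 0.039) at days 2-3. A dye effect remains in that test, and so do the uninduced ratios of CD53, which were already above 0. The share of all genes and features called in that test is not given here.

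CD24 had ratios of 0.08, 0.34 and 0.13 at days 4-5, all above the 3 uninduced values given above, a difference of 1.26 (SE 0.55, limma adjusted p = 0.804). Its 6 features ran from -0.37 to 3.99. CD22 differed by 0.70 (SE 0.33) at 0.44, 0.44 and -0.48 on the induced arrays, the last of which lies below 2 of the uninduced values. CD37 differed by 0.81 (SE 0.49), CD40 by 0.41 (SE 0.26), CD180 by 0.46 (SE 0.44) and CD72, a receptor that dampens B cell receptor signals, by 0.37 (SE 0.44). CR2 differed by 0.23 (SE 0.21), FCER2 by 0.02 (SE 0.28), CD79B by -0.02 (SE 0.21) and MS4A1 by -0.15 (SE 0.26). CD37, CD40 and CD180 kept all their features above 0 in both windows, but without the uninduced array of series 1332, or without that whole series, CD180 turned below 0 at days 4-5, down to -0.26.

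T cell antigens at days 4-5 were CD6 at 0.73 (SE 0.38), CD5 at 0.62 (SE 0.39), CD226, an adhesion receptor of T and NK cells, at 0.69 (SE 0.46), CD247, the zeta chain, at 0.75 (SE 0.54), CD8A at 0.39 (SE 0.29) and CD244 at 0.55 (SE 0.42). CD247, CD226, CD244 and CD28 had no values in series 1332. The 3 CD3 chains differed by 0.31 (CD3G), 0.08 (CD3E) and -0.05 (CD3D), and CD7 by -0.16. Myeloid antigens were CD36, a scavenger receptor for lipids, at 0.82 (SE 0.39), CD83 at 0.42 (SE 0.22), CD1D at 0.36 (SE 0.24), CD86 at 0.37 (SE 0.33), CD80 at 0.46 (SE 0.41) and CD14 at -0.16 (SE 0.33). CD36 and CD80 also had no values in series 1332, and CD36 moved by 1.06 within series 1332b and by 0.59 within 2046. The smallest limma adjusted p among these T cell and myeloid antigens was 0.804.

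Among 32 antigens with all 6 values, the days 4-5 values lay wholly above the uninduced ones in 4 (CD24, CD34, CD53 and CD83) and wholly below in 0, against 4.73% and 7.15% of 3873 genes and features. The 9 features of CD83 had both signs in this window, with 5 above 0 and 4 below. They ran from -0.30 to 1.80, and the highest had values on only 8 arrays. CD53 was the 1 antigen wholly above in both windows, which share the same uninduced arrays. The share of all genes and features wholly above in both was not counted.

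Compared directly, days 4-5 against days 2-3 gave 0 called of 47 antigens and 0 of 6072 genes and features (0%), with 2 antigens at an unadjusted p under 0.05 against 13.7% of everything. The groups had medians between -0.10 (B cell) and 0.11 (broad). CD47 differed most by p: its days 4-5 ratios of 0.24, 0.44 and 0.09 lay above all 3 days 2-3 ratios, by 0.63 (SE 0.22, limma adjusted p = 0.308). Its 5 features were all below 0 at days 2-3 and all above 0 at days 4-5 relative to uninduced. CD6 differed by -1.03 (SE 0.42, limma adjusted p = 0.336). Lower late than early, though not past the test, were CD180 (-0.87, SE 0.44), MS4A1 (-0.53, SE 0.26), CD7 (-0.48, SE 0.23) and CD79B (-0.46, SE 0.21), and CD36 (0.80, SE 0.39) and CD164 (0.62, SE 0.36) were higher late.

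At day 7, on the 1 array of series 1332, CD6 stood at 3.01, CD52, a small antibody target of lymphocytes, at 1.41, CD1D at 1.15, CD22 at 0.89 and CD34 at 0.86. The lowest were CD7 at -0.63, CD59 at -0.55 and CD320, a receptor for vitamin-bound transcobalamin, at -0.55. There is no repeat of this array.

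**Figure D4:**
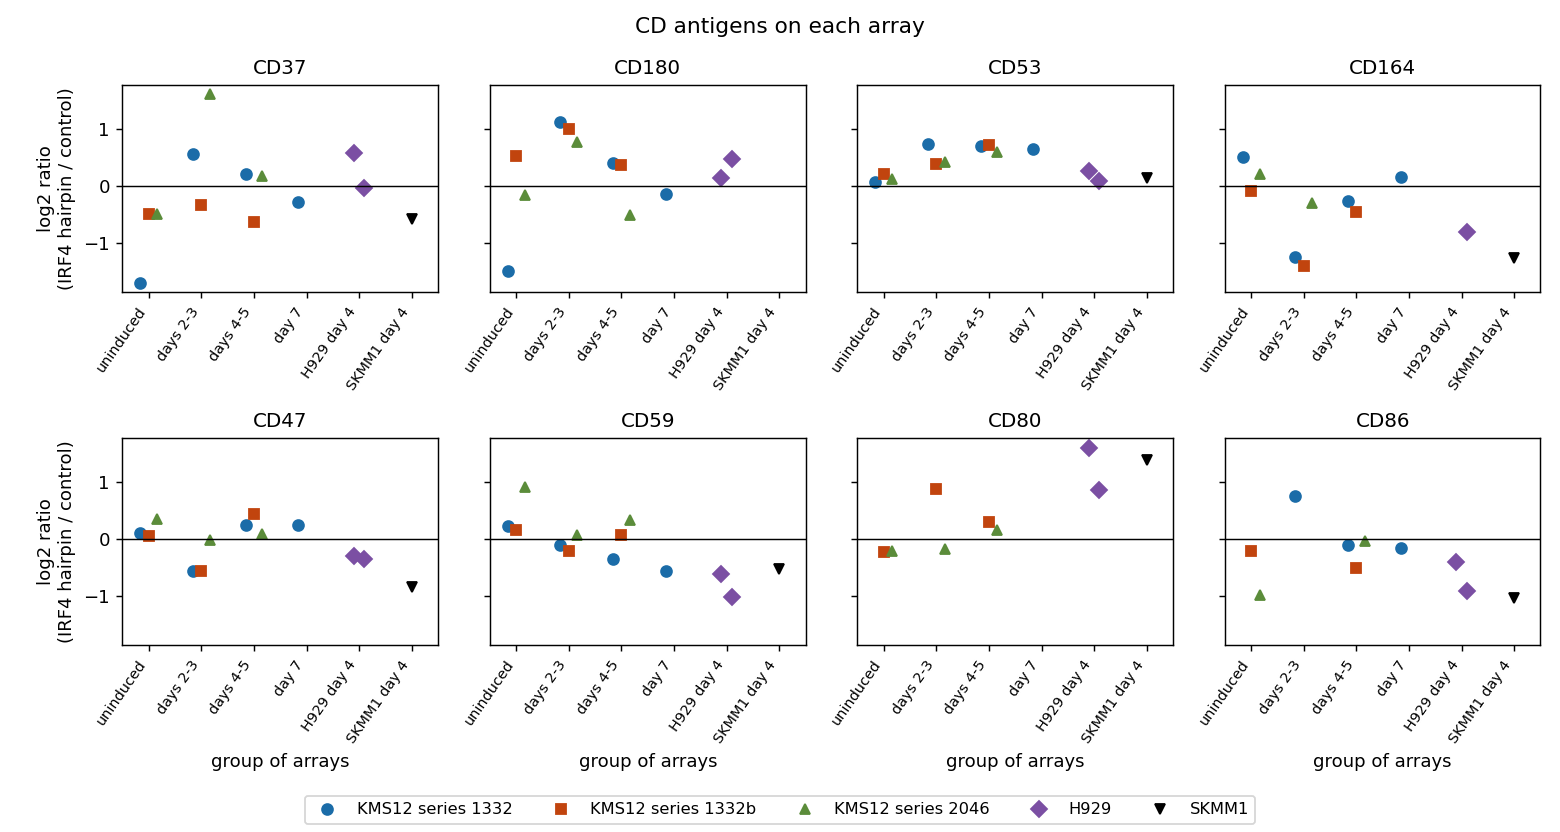
Log2 ratio of 8 CD antigens on each array (points, 1 symbol per culture series or line) by group of arrays on the horizontal axis. CD53 is above 0 throughout, CD164 and CD47 have their lowest KMS12 values at days 2-3, and CD80 lies between 0.86 and 1.59 in H929 and SKMM1, where CD59 and CD86 lie below 0.

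In H929 at day 4 the ratios were tested against 0, which leaves in any dye effect. limma called 20 of 4858 genes and features (0.412%), IRF4 among them (-1.94, SE 0.22, adjusted p = 0.00929), and 0 of the 42 antigens tested. At an unadjusted p under 0.05 there were 5 antigens, against 21.2% of everything. The 7 tested T cell antigens were all above 0, with a median of 0.43, B cell antigens had 0.22 (6 of 9), broad antigens 0.03 (9 of 17) and myeloid antigens 0.02 (5 of 9), beside 0.02 for all. CD80 came closest to the threshold, at 1.59 and 0.86 on the repeats (mean 1.22, SE 0.29, limma adjusted p = 0.0762), while CD86, the other ligand of CD28, stood at -0.40 and -0.91 (mean -0.66, SE 0.26, limma adjusted p = 0.199). CD48, the ligand of CD244, was at -0.51 and -1.02 (mean -0.76, SE 0.22, limma adjusted p = 0.0898). CD59 was at -0.61 and -1.01 (mean -0.81, SE 0.23, limma adjusted p = 0.0903), with all 4 features below 0. CD3E was at 0.70 and 0.52 (mean 0.61, SE 0.21, limma adjusted p = 0.129). CD40 was at 0.42 and 0.46 (mean 0.44, SE 0.22). It was called under a stricter filter that asks for values on 10 or more arrays, at 0.80 (limma adjusted p = 0.0449). That filter kept fewer of its 4 features, whose H929 means ran from -0.24 to 0.75. The share of all genes and features called under that filter is not given here.

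For hairpin 2046 at day 4 across KMS12, H929 and SKMM1, with 1 value per line, limma called 0 of 49 antigens and 0 of 6557 genes and features (0%), with 4 antigens at an unadjusted p under 0.05 against 12.8% of everything. CD80 was above 0 in each line, at 0.17 in KMS12, 1.22 in H929 and 1.38 in SKMM1 (mean 0.92, SE 0.27, limma adjusted p = 0.33). CD86 was below 0 in each, at -0.03, -0.66 and -1.03 (mean -0.57, SE 0.24). In KMS12 series 2046, however, CD86 stood at -0.97 before induction, so its day 4 value was a rise of 0.94 within the series. H929 and SKMM1 had no uninduced array to compare. CD164 was at -0.80 in H929 and -1.26 in SKMM1 and had no value in KMS12 (mean -1.03, SE 0.26). Without the KMS12 array limma called these 3, CD80 at 1.30 (adjusted p = 0.0237), CD164 at -1.03 (adjusted p = 0.0318) and CD86 at -0.84 (adjusted p = 0.0436). CD164 had the same estimate in both fits, so its call reflects a change in the fit and not in its own values. The share of all genes and features called in that fit is not given here. CD5L was at -0.63 (SE 0.25) over 2 lines. T cell antigens had a median of 0.22 with 10 of 11 above 0, beside -0.01 and 49.4% above 0 for all genes and features. Markers outside the CD antigens had medians of 0.38 for T and NK cell genes (4 of 4), 0.26 for erythroid or stromal genes (4 of 6), 0.23 for B cell genes (4 of 4), 0.23 for myeloid genes (2 of 3) and -0.35 for plasma cell genes other than IRF4 (1 of 7). CD28, CD3E and CD7 were above 0 in all 3 lines, at means of 0.40, 0.35 and 0.28. In KMS12, however, CD3E and CD7 stood at only 0.03 each, below their uninduced ratios of 0.25 and 0.28. Within series 2046 CD3E thus moved by -0.22 and CD7 by -0.25, while CD28 moved by 0.83. B cell, myeloid and broad medians were 0.05, 0.12 and 0.02, and CD40 was above 0 in all 3 lines (mean 0.36, SE 0.20) while MS4A1 had a mean of -0.42 (SE 0.20).

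The lines were also set against each other, with the H929 arrays of hairpin 2046 against KMS12 arrays of which 2 of 3 carry a 1332 number, so line and hairpin cannot be told apart. Between H929 and KMS12 at days 4-5, limma called 0 of 41 antigens and 0 of 4758 genes and features (0%), and 5 antigens had an unadjusted p under 0.05 against 13.2% of everything. In H929 the ratios were lower for CD59 (-0.83, SE 0.30), CD48 (-0.80, SE 0.28), CD47 (-0.58, SE 0.25) and CD53 (-0.50, SE 0.22) and higher for CD80 (0.99, SE 0.41), with limma adjusted p-values of 0.299 to 0.353. On SKMM1, as on H929, CD47 and CD59 were below 0, at -0.84 and -0.51. SKMM1 also gave the highest ratio of CD302, a C-type lectin of macrophages, at 1.88, and of CD200, an inhibitory ligand, at 1.12.

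Before induction the antigens had a median ratio of -0.09, and limma called 0 of 52 against 0 and 0 of 6696 genes and features (0%), with 7 antigens at an unadjusted p under 0.05 against 8.23% of everything. B cell antigens had a median of -0.23. CD24 (-1.08, SE 0.39), CD5 (-0.92, SE 0.30), CD37 (-0.89, SE 0.35), CD9 (-0.85, SE 0.31), CD6 (-0.82, SE 0.24) and CD22 (-0.56, SE 0.23) lay below 0 on every uninduced array that measured them, and CD59 lay above (0.43, SE 0.19). Other antigens also lay on 1 side of 0 on every uninduced array that measured them. Among them were CD34 (-0.605), CD86 (-0.585), CD83 (-0.312) and CD1D (-0.175) below 0, and CD55 (0.254), CD47 (0.176) and CD53 (0.129) above 0. The differences from the uninduced arrays given above include such starting ratios. Genes and features with values on only 7 to 9 arrays had uninduced medians of -0.52, -0.03 and -0.42 in series 1332, 1332b and 2046.

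Surface antigens that carry other symbols showed a similar spread. Of 61 listed leukocyte antigens outside the CD symbols, 48 were tested at days 2-3 with 0 called, a median of 0.26 and 34 above 0, and 47 at days 4-5 with 0 called, a median of 0.09 and 30 above 0. The smallest p at days 2-3 belonged to the integrin chain ITGA4 (-1.24, SE 0.30), the transferrin receptor TFRC (-0.86, SE 0.24), the chemokine receptor CCR7 (1.81, SE 0.48) and the integrin chain ITGB1 (-1.24, SE 0.39), with limma adjusted p-values of 0.106 to 0.123. At days 4-5 they were FCGR1A (1.55, SE 0.42), ADGRE5 (-0.57, SE 0.21), CXCR4 (0.66, SE 0.26) and TFRC (-0.57, SE 0.24), at a limma adjusted p of 0.804.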

How the data were processed

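The authors deposited a log ratio for each of 15246 features on 13 arrays, taken as log2 since values run from -9.78 to 7.51. Its base, the normalization and the rule for blank spots were not given in the sources used here. Column medians as deposited lay between -0.076 and 0.012, and 7140 to 14228 features had a value per array. Per the labels, Cy5 held the IRF4 hairpin culture and Cy3 the control on all arrays, with 0 dye swaps, so a dye effect stays in tests against 0 and cancels between arrays. The lowest correlation between arrays was -0.33, between the series 2046 uninduced array and SKMM1, under unlike conditions; the dyes set the direction.

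Names came from the platform annotation, updated through gene identifiers (10128 of 10169 features with 1 symbol matched, 4 had several symbols and 5073 none). Features with values on 7 or more arrays (10396) were kept, each array was centred on their median, and features were averaged per gene into 6948 genes and unnamed features. limma 3.58.1 in R 4.3.3 fitted 6 group means (two-sided, Benjamini-Hochberg over all tested, threshold 0.05, at least 2 arrays in each group compared), and hairpin 2046 in 3 lines was fitted separately. Arrays of 1 series number, from the titles, deviated together from their group means. Correlations were 0.14, 0.235 and 0.19 between uninduced and days 2-3, and 0.246, 0.134 and 0.137 between uninduced and days 4-5. The numbers thus pair these arrays, though weakly. The fit of group means, which gave the SE and p-values of the KMS12 windows, does not use this pairing. Groups with 1 array share the estimated spread. The fit was tested on simulated data. Missing values were left missing.

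The members, their groups and all lists were chosen with earlier results of these data known. Genes named are IRF4, any antigen past the threshold, every measured B cell antigen, up to 6 of each other group by smallest p, and up to 4 other leukocyte antigens per KMS12 window. Antigens named for day 7, for SKMM1, for an EICE match, for non-overlap or to complete a family were chosen after their values were seen. Alternatives were other filters, centring, scaling, 1 feature per gene, fewer arrays, tests against 0, a replicate block and leaving out arrays.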

Additional observations from a re-analysis of the deposited data

How the results depend on the processing

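The count of called antigens stayed at 0 in all 7 comparisons except where named here. Against 0 the days 2-3 count was 2, and under the filter of 10 or more arrays the H929 count was 1. Leaving out 1 array gave 0 to 2 at days 2-3 and 0 to 3 for hairpin 2046 in 3 lines. The share of all genes and features called under these alternatives is not given here, so the counts are not set against a background. The median of the antigens at days 2-3, 0.185 as reported, was 0.354 under the stricter filter, 0.064 without centring, 0.076 against 0 and 0.14 to 0.312 without 1 array. At days 4-5, 0.352 as reported, it was 0.206 under the stricter filter, 0.182 with centring within classes of arrays measured, 0.173 with the most measured feature per gene, 0.119 against 0, 0.146 to 0.283 without 1 array and 0.178 without culture series 1332, an alternative chosen after seeing the data. Between the windows it was -0.132 to 0.024 without 1 array. The median over all antigens did not change sign at days 2-3 or days 4-5 under these alternatives, whereas that of the broad group at days 2-3 went from 0.057 to -0.012 without series 1332. Of 192 results for named antigens, 143 kept their sign under every alternative, and of their 2114 values 7 passed the threshold (the call of CD34 is not counted, since the naming rule did not reach it), 103 lay on the other side of 0 and 86 moved by more than the replicate SD. With the series number as a replicate block, no call changed, and the medians were 0.155 at days 2-3, 0.31 at days 4-5 and 0.079 between the windows, where the numbers were not shown to pair the arrays (correlations of 0.359, -0.102 and -0.069). Features of 1 gene had both signs in 14 of 30 antigens at days 2-3, 12 of 30 at days 4-5 and 17 of 29 in H929. Signal over background was not used here, so faint spots could only be approached through how often a feature was measured.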
